A study of Mus musculus with 6 samples.

Results

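The 10 pericentral Wnt target genes Glul, Axin2, Lgr5, Tbx3, Slc1a2, Rhbg, Oat, Cyp1a2, Lect2 and Znrf3 were read in liver RNA of 3 mice lacking sphingosine-1-phosphate (S1P) lyase (KO) and 3 wild-type mice (WT). They were taken as all probe sets of the array whose platform annotation gives exactly 1 symbol equal to one of these names, which gave 22 of the 45101 probe sets of the table. Every one of the 10 genes had at least 1 probe set bright enough to be tested, so 10 of 10 entered the fit. Each liver was hybridised to 1 Affymetrix expression array, so each group has 3 arrays. S1P lyase, encoded by Sgpl1, irreversibly cleaves the signalling lipid S1P. All animals, KO and WT alike, had a mixed C57BL6 and 129sv background and are labelled as untreated. No age, sex or litter was used here, nor is the design of the knockout allele known here.

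A liver lobule is divided along the path of the blood, which enters at the portal tract and leaves at the central vein. Endothelial cells of the central vein secrete Wnt ligands and R-spondin, and β-catenin with TCF factors then switches on a set of genes in the hepatocytes nearest the vein. These pericentral cells make glutamine from ammonia and carry much of the cytochrome P450 metabolism, while periportal cells run the urea cycle and gluconeogenesis. Axin2, Lgr5, Znrf3 and Tbx3 are also general Wnt targets, of which Axin2 and Znrf3 damp the pathway.

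All 10 genes had a lower mean in KO than in WT livers, and Cyp1a2 and Lect2 differed most clearly. Read by its brightest tested probe set, a gene counted as changed where limma's adjusted p (Benjamini-Hochberg, over all 27022 tested probe sets) lay under 0.05. By that measure 5 of the 10 genes fell (Cyp1a2, Lect2, Lgr5, Znrf3 and Rhbg) and 0 rose, where 7.85% of the 13370 genes tested fell and 10.3% rose. The median difference, KO minus WT, was -0.74 log2 over the 10 genes and -0.05 log2 over all tested genes, of which 55.6% had a lower KO mean. In 6 of the 10 genes every KO array lay below every WT array, against 21.8% of all genes. The count of 5 was 3 without KO replicate 2, without WT replicate 1 or without WT replicate 3, where 3.90%, 4.89% and 6.84% of all genes fell. In whole-liver RNA, fewer pericentral hepatocytes and less RNA per cell cannot be told apart.

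**Figure D1:**
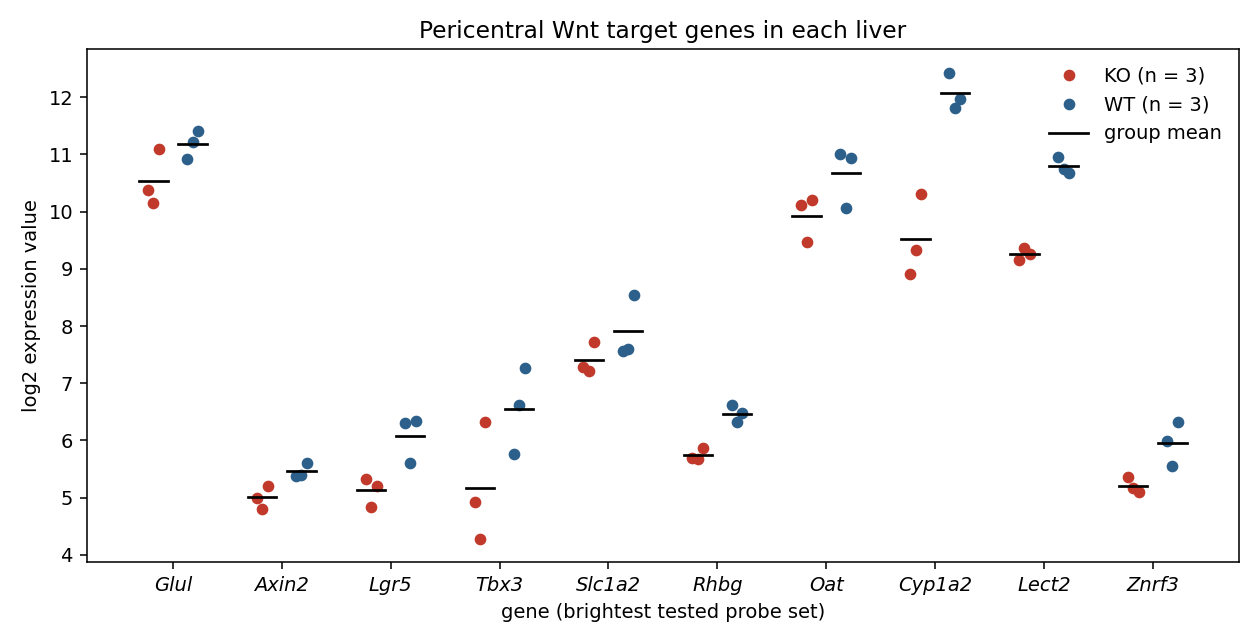
Log2 expression value (vertical axis) of the brightest tested probe set of each of the 10 genes, with 3 KO livers in red to the left of 3 WT livers in blue and a black line at each group mean. The KO points of Cyp1a2, Lect2, Lgr5, Znrf3, Rhbg and Axin2 all lie below the WT points, and those of Glul, Tbx3, Slc1a2 and Oat overlap with them. Heights of different genes are not comparable, since each probe set has its own brightness.

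The labels held for the targeted gene. Sgpl1 read 2.46, 2.99 and 2.87 log2 in KO livers, against 6.65, 6.90 and 6.71 log2 in WT livers, on its brighter probe set (limma adjusted p = 1.27e-05). Both groups carried strong hepatocyte transcripts: the mean over 7 hepatocyte markers was 13.3 in each KO array and 13.2 to 13.4 in the WT arrays, and 1 of the 7 fell. Other features moved with genotype, set beside 7.85% of all genes that fell and 10.3% that rose. Of 10 neutrophil markers 9 rose, and their mean level was 8.85 to 9.13 log2 in KO arrays and 5.44 to 5.69 log2 in WT arrays. The 3′ minus 5′ signal of Pcx, a control for transcript integrity, was 2.77 to 3.40 log2 in KO arrays and 1.97 to 2.31 log2 in WT arrays (p = 0.1 in a two-sided exact permutation test, whose lowest possible p here is 0.1). Of 12 macrophage markers 4 fell and 3 rose, among them Clec4f at -2.82 log2, Vsig4 at -2.30 log2 and Marco at 3.02 log2, and their mean was 7.70 to 7.87 log2 in KO arrays and 7.63 to 8.07 log2 in WT arrays. Of 8 stellate cell markers 2 fell (Lrat at -1.24 log2 and Reln at -0.64 log2) and 1 rose, and their mean was 7.28 to 7.44 log2 in KO arrays and 7.47 to 7.75 log2 in WT arrays. Neither of the 2 tested bile duct markers passed. Bacterial poly-A control RNAs averaged 0.75 log2 higher in KO. The part of these in the results below was not tested.

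Cyp1a2, a cytochrome P450 that oxidises caffeine and aromatic amines and is confined largely to pericentral hepatocytes, showed the largest difference of the 10 genes. It read 8.90, 9.33 and 10.31 log2 in KO replicates 1, 2 and 3, against 12.43, 11.82 and 11.96 log2 in WT replicates 1, 2 and 3. The groups lay well apart, with more spread among KO livers (SD 0.72) than among WT livers (SD 0.32), and KO replicate 3 was the least reduced. The difference was -2.56 log2 (SE 0.33, limma adjusted p = 0.00194), a 5.88-fold lower value in KO. It passed in all 16 alternative settings tried, with differences from -3.30 to -2.25 log2.

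Cyp1a2 is also a target of the aryl hydrocarbon receptor AHR, so other AHR targets were set beside it. Of 5 tested, 1 fell and 0 rose, with a median difference of 0.16 log2, where 7.85% of all genes fell and 10.3% rose. Nqo1, a quinone reductase, was the one that fell, by 0.70 log2 (SE 0.19, limma adjusted p = 0.0361). Its call was lost without KO replicate 1, 2 or 3, without WT replicate 2 or 3, and on the hepatocyte marker scale (adjusted p 0.0574 to 0.122). Cyp1a1, the closest relative of Cyp1a2, read 3.68, 3.97 and 4.04 log2 in KO livers, against 4.07, 4.82 and 4.39 log2 in WT livers. All KO values of Cyp1a1 lay below the WT values, by small margins near the dim end of the array, and the difference of -0.53 log2 did not pass (limma adjusted p = 0.0983).

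Lect2, a protein that hepatocytes secrete into the blood, gave the smallest p-value of the 10 genes. It read 9.15, 9.36 and 9.26 log2 in KO livers, against 10.95, 10.75 and 10.67 log2 in WT livers. Both groups were tight and more than 1 log2 unit apart. The difference was -1.54 log2 (SE 0.12, limma adjusted p = 0.000204), a 2.90-fold lower value in KO. It passed in all 16 alternative settings, with differences from -2.28 to -1.45 log2.

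The promoter table from RefSeq (build GRCm38.p6) holds a start site for 6 of the 10 genes: Glul, Axin2, Slc1a2, Oat, Cyp1a2 and Lect2. The 250 bases before each start were searched on both strands for ATCAAAG, the core that TCF factors recognise, which reads CTTTGAT on the other strand. It was found in Lect2 and Slc1a2, and in 3.21% of 32851 promoters of the same length. In Lect2 it spans bases -32 to -26 and in Slc1a2 bases -207 to -201, counted back from the start. The sequences of these genes and of Cyp1a2, the gene with the largest difference, are shown 5′ to 3′ on the gene's strand, with the match in capitals. The Lect2 stretch is chr13:56548539-56548788 (minus strand), that of Slc1a2 chr2:102706188-102706437 (plus strand), and that of Cyp1a2 chr9:57683656-57683905 (minus strand, with no match to these letters).
Lect2: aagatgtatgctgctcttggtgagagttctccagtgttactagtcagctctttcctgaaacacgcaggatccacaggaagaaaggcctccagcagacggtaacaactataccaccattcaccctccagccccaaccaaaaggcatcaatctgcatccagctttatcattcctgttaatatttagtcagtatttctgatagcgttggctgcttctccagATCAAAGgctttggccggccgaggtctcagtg
Slc1a2: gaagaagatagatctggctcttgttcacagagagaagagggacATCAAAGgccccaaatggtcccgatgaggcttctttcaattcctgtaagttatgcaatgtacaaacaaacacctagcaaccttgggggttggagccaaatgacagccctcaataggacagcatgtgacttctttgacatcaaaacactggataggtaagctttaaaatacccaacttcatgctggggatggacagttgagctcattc
Cyp1a2: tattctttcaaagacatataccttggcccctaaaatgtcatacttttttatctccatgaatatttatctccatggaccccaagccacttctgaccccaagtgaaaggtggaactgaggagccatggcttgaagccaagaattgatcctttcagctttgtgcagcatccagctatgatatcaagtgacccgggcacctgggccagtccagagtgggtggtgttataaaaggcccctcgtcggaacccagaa
A match describes letters in this window only, and factor binding was not measured.

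The 4 genes that are general Wnt targets all had lower means in KO, and 2 of them, Lgr5 and Znrf3, passed. Lgr5, a receptor for R-spondins, read 5.33, 4.84 and 5.21 log2 in KO livers, against 6.30, 5.61 and 6.33 log2 in WT livers. The groups did not overlap, and WT replicate 2 was the lowest WT liver. The difference was -0.95 log2 (SE 0.22, limma adjusted p = 0.0216), 1.94-fold lower in KO. The call was lost without KO replicate 2, WT replicate 1 or WT replicate 3 (differences -0.81, -0.84 and -0.83 log2, adjusted p 0.0522 to 0.0827). Lgr5 lies on chromosome 10, as Sgpl1 does, with 496 protein-coding genes between them, and the part of strain alleles linked to the knockout was not tested.

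Znrf3, a ubiquitin ligase that removes Wnt receptors from the cell surface and is blocked by R-spondin, read 5.36, 5.17 and 5.10 log2 in KO livers, against 5.98, 5.55 and 6.32 log2 in WT livers. KO livers were closely grouped below all WT livers. The difference was -0.74 log2 (SE 0.19, limma adjusted p = 0.0344). Leaving out any 1 array other than WT replicate 2, or weighting arrays, took the adjusted p to between 0.0528 and 0.106, with differences of -0.81 to -0.56 log2.

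Axin2, a scaffold of the complex that degrades β-catenin and a widely used readout of Wnt activity, read 5.0, 4.81 and 5.21 log2 in KO livers, against 5.38, 5.39 and 5.61 log2 in WT livers. The KO and WT values did not overlap, but the gap between them was narrow. The difference of -0.45 log2 (95% confidence interval -0.78 to -0.13) did not pass (limma adjusted p = 0.0597). It passed in 5 of 16 alternative settings, among them quantile normalization (adjusted p = 0.0445) and the omission of KO replicate 3 (adjusted p = 0.0443).

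Tbx3, a T-box transcription factor of pericentral hepatocytes, varied most between animals. Its brightest probe set, of a type that can also read related transcripts, gave 4.92, 4.28 and 6.32 log2 in KO livers, against 5.76, 6.62 and 7.27 log2 in WT livers. KO replicate 3 lay above WT replicate 1, and the SD was 1.05 in KO and 0.76 in WT. The difference of -1.38 log2 had a 95% confidence interval of -2.60 to -0.16 and did not pass (limma adjusted p = 0.108). A second probe set differed by -0.74 log2 (interval -1.69 to 0.21). Without KO replicate 3 the brightest probe set passed, at -1.95 log2 (adjusted p = 0.0215).

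The nitrogen-handling genes had lower means too, and whether Glul and Slc1a2 passed depended on the probe set. Glul encodes glutamine synthetase, which fixes ammonia in the innermost ring of hepatocytes around the vein and is the defining marker of that ring. Its brighter probe set read 10.38, 10.15 and 11.10 log2 in KO livers, against 10.92, 11.22 and 11.41 log2 in WT livers. KO replicate 3 lay within the WT range there, and the difference of -0.64 log2 (95% confidence interval -1.19 to -0.09) did not pass (limma adjusted p = 0.0990). The dimmer probe set read 8.48, 8.18 and 9.53 log2 in KO livers, against 9.75, 10.15 and 10.41 log2 in WT livers. On it the groups did not overlap, the order of the 6 livers within each group was the same as on the brighter one, and the difference was -1.37 log2 (SE 0.33, limma adjusted p = 0.0244). That call was lost without KO replicate 1 or 2 or WT replicate 2 or 3 (adjusted p up to 0.0899, difference -1.10 log2 at the smallest), and the brighter probe set passed without KO replicate 3, at -0.92 log2 (adjusted p = 0.0113).

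Slc1a2, a glutamate transporter of pericentral hepatocytes, had 4 tested probe sets that did not give the same answer. The brightest read 7.28, 7.21 and 7.73 log2 in KO livers, against 7.56, 7.60 and 8.55 log2 in WT livers. These overlapped and differed by -0.50 log2 (interval -1.13 to 0.12, limma adjusted p = 0.231). The second brightest read 5.16, 5.05 and 5.68 log2 in KO livers, against 6.61, 6.61 and 6.87 log2 in WT livers. Here the groups were almost a log2 unit apart, with a difference of -1.40 log2 (SE 0.18, limma adjusted p = 0.00201) that passed in all 14 alternatives that could be fitted per probe set. The other 2 did not pass, with differences of -0.14 and -0.15 log2. The probe positions were not available here, and the 3′ minus 5′ control signals differed between the groups.

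Rhbg, an ammonium transporter of the basolateral membrane, read 5.70, 5.67 and 5.87 log2 in KO livers, against 6.61, 6.32 and 6.47 log2 in WT livers. KO livers lay below WT livers with little spread in either group. The difference was -0.72 log2 (SE 0.13, limma adjusted p = 0.00768), 1.65-fold lower in KO, and it passed in all 16 alternatives. Oat, ornithine aminotransferase, which turns ornithine towards glutamate, read 10.11, 9.47 and 10.21 log2 in KO livers, against 11.01, 10.06 and 10.94 log2 in WT livers. WT replicate 2 lay below KO replicates 1 and 3. The difference of -0.74 log2 (95% confidence interval -1.39 to -0.09) did not pass (limma adjusted p = 0.106), and it did without WT replicate 2, at -1.04 log2 (adjusted p = 0.0217).

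**Figure D2:**
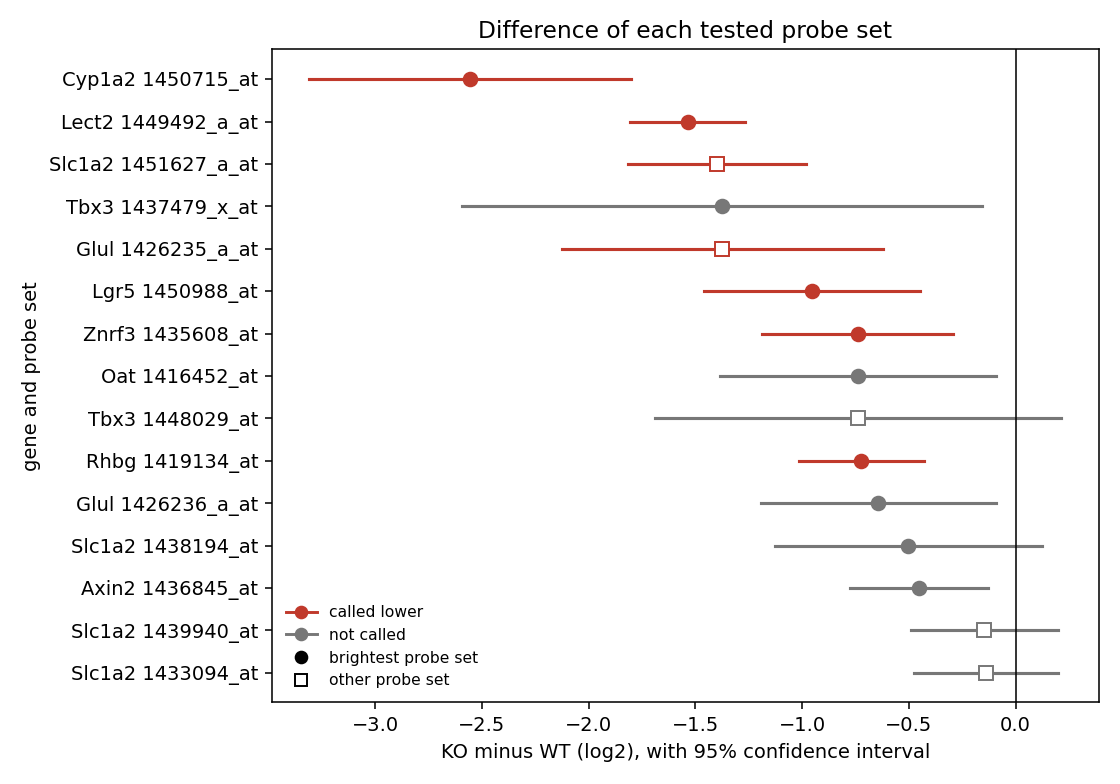
KO minus WT difference on the log2 scale (horizontal axis) of each of the 15 tested probe sets, with 95% confidence intervals from limma, filled circles for the brightest probe set of a gene and open squares for its others. All 15 lie below 0, and the 7 in red passed at an adjusted p under 0.05.

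Across probe sets, 7 of the 15 tested fell and 0 rose, where 7.82% of all tested probe sets fell and 10.1% rose. Those 7 belong to 7 different genes: besides the 5 genes called by their brightest probe set, Glul and Slc1a2 each had another that fell. Among all genes, 11.6% had at least 1 tested probe set that fell, and genes with more probe sets have more chances. The count of 7 probe sets was 4 without KO replicate 2 or without WT replicate 3. The remaining 7 of the 22 probe sets, for Axin2, Lgr5, Tbx3, Slc1a2 and Znrf3, were too dim to be tested, with values of 2.62 to 3.96 log2. Of these, 6 had a lower KO mean. The share among all probe sets too dim to be tested was not computed, so that count is no support for a fall.

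The 10 genes did not move by the same amount in each animal. KO replicate 2 was the lowest of the KO livers in 7 of 10 genes and KO replicate 3 the highest in 7 of 10. Relative to each gene's WT mean, the median over the 10 genes was -0.76 log2 in KO replicate 1, -1.12 log2 in KO replicate 2 and -0.53 log2 in KO replicate 3. It was 0.09 log2 in WT replicate 1, -0.20 log2 in WT replicate 2 and 0.24 log2 in WT replicate 3. On the brightest probe sets KO replicate 3 lay near the WT mean in Glul, Slc1a2, Tbx3 and Axin2, at -0.25 to -0.08 log2. The other 6 genes of that liver were at -1.76 to -0.46 log2. On the dimmer probe sets that passed, the same liver was at -0.58 log2 for Glul and -1.02 log2 for Slc1a2. The remaining tested Slc1a2 probe sets were at 0.06 and 0.05 log2 there, and the second of Tbx3 at -0.12 log2. The same liver had the lowest 3′ minus 5′ signal of the KO arrays for Actb, at 1.12 log2 against 1.45 and 1.42 log2 in the other KO arrays, and 0.81 to 0.97 log2 in WT. Whether the less reduced genes of that liver follow from this was not tested.

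**Figure D3:**
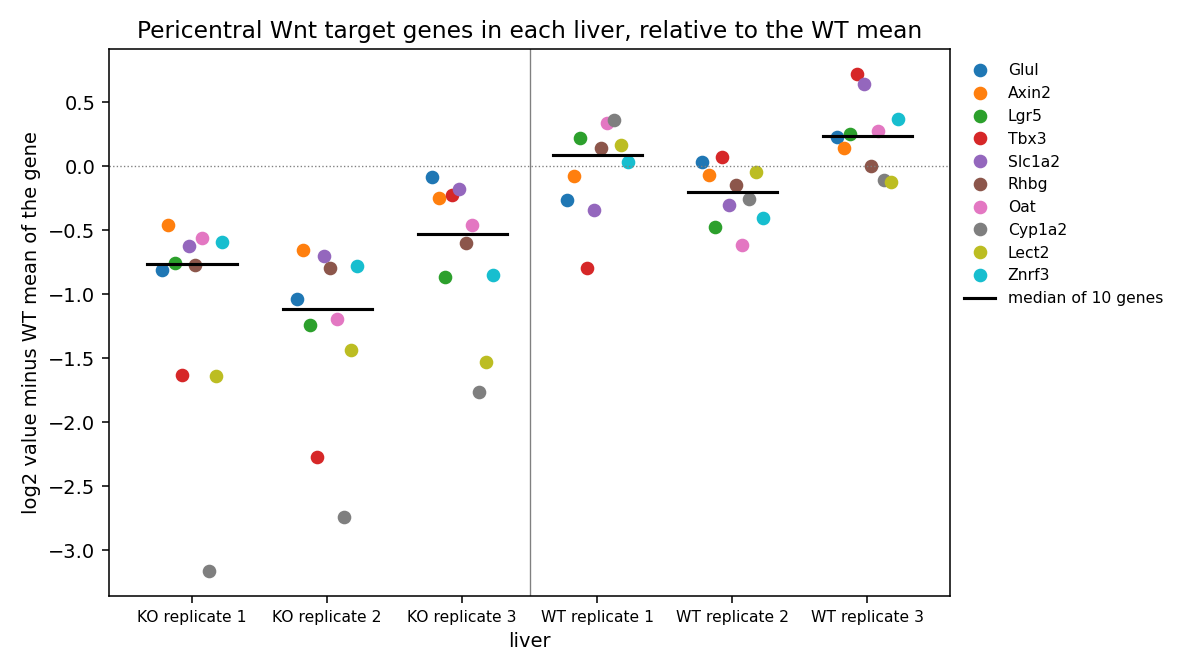
Log2 value minus the gene's WT mean (vertical axis) of the brightest probe set of each of the 10 genes, by liver, with a black line at the median of the 10 genes. The medians are -0.76, -1.12 and -0.53 log2 in KO replicates 1, 2 and 3 and 0.09, -0.20 and 0.24 log2 in WT replicates 1, 2 and 3.

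The tested genes with a pattern nearest to that of Glul were found by the mean absolute difference over the 6 arrays, each gene taken relative to its own WT mean. With genes named only as predicted loci, clones or accessions left out, they were Slc25a16, Pno1, Arhgap12, Phospho2 and Dcun1d4, at 0.04 to 0.11 log2 from Glul. Their differences were -0.74 to -0.60 log2, beside -0.64 log2 for Glul, which the choice by likeness fixes, so no test of them is given. Among the other 9 pericentral Wnt target genes, Axin2 was the nearest to Glul, at 0.21 log2 and rank 173 of 13369 genes, followed by Slc1a2 at 0.24 log2. Cyp1a2, with the largest difference, was the farthest, at 1.16 log2. Only the brighter Glul probe set was used, while the dimmer one differed by -1.37 log2. The distances are not scaled, so they also reflect the size of each gene's difference.

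Other Wnt target genes moved both ways. Of 11 tested, 2 fell, 2 rose and 7 did not pass, with a median of -0.09 log2, where 7.85% of all genes fell and 10.3% rose. Notum, a secreted enzyme that inactivates Wnt ligands, read 6.33, 5.88 and 5.81 log2 in KO livers, against 7.39, 7.75 and 7.49 log2 in WT livers. This was a difference of -1.54 log2 (SE 0.17, limma adjusted p = 0.00111), as large as that of Lect2, with the groups about 1 log2 unit apart. Rnf43, the partner ligase of Znrf3, read 4.13, 4.21 and 4.79 log2 in KO livers, against 5.01, 5.34 and 5.34 log2 in WT livers. It fell by 0.85 log2 (SE 0.19, limma adjusted p = 0.0198), a call lost without KO replicate 1 or 2 or WT replicate 2 (adjusted p 0.0595 to 0.0792). The 2 that rose were Cd44, by 1.90 log2, and Myc, by 0.79 log2. With arrays centred on the poly-A controls Myc was at 0.04 log2 and did not pass. The rise of Cd44 is larger than the 0.75 log2 by which that scale lowers every difference.

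Upstream of the 10 genes, 1 of 13 tested Wnt and R-spondin ligand and secretion genes fell, 0 rose, and the median was -0.28 log2. That count is close to the 7.85% of all genes that fell, so the count of calls alone says nothing particular about the ligands. Of the 13, 12 had a lower KO mean, against 55.6% of all genes. In 8 of the 13 every KO array lay below every WT array, against 21.8% of all genes. The group means of the 13 were 3.54 to 5.99 log2, several of them near the 3.58 log2 floor of the test. Shares among equally dim genes were not computed, so these counts are no support for a fall of the ligands. Whether the list as a whole differs was not tested. Wnt2, which the endothelium of the central vein and nearby sinusoids makes, read 4.96, 4.67 and 4.56 log2 in KO livers, against 5.79, 5.17 and 5.84 log2 in WT livers. It fell by 0.87 log2 (SE 0.20, limma adjusted p = 0.0217), and lost the call without KO replicate 2 or 3 or WT replicate 1 or 3 (adjusted p 0.0520 to 0.0789). Wnt9b, the other main central vein ligand, differed by -0.28 log2 (SE 0.12) and Rspo3 by 0.01 log2 (95% confidence interval -0.46 to 0.48), and neither passed. The values of both were 3.98 to 4.72 log2 in KO and WT livers, little above the 3.58 log2 floor of the test. Of 12 endothelial markers, 4 rose and 1 fell, where 10.3% of all genes rose and 7.85% fell. Their array mean was 6.64 to 6.94 log2 in KO and 6.31 to 6.52 log2 in WT.

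Among 16 tested Wnt receptor genes, 1 fell and 0 rose (median -0.21 log2), again near the 7.85% of all genes that fell. Fzd8, a Frizzled receptor, fell by 0.96 log2 (SE 0.20, limma adjusted p = 0.0149), and lost the call without KO replicate 2 or WT replicate 1 (adjusted p = 0.0640 and 0.0505). A dimmer probe set of Fzd7, named after its values were seen, fell by 0.61 log2 (limma adjusted p = 0.0289). The brightest of Fzd7 differed by -0.01 log2, and the dimmer one was not followed through the alternatives. In the list of β-catenin and its destruction complex, 1 of 16 rose and 0 fell (median 0.10 log2), where 10.3% of all genes rose. The one that rose was Tnks2, a tankyrase that marks Axin for destruction, by 0.54 log2 (SE 0.10, limma adjusted p = 0.0106), and its call was lost without KO replicate 2 (adjusted p = 0.0529). On the poly-A scale Tnks2 was at -0.21 log2. Some dimmer probe sets of the list, named after their values were seen, passed where the brightest of the gene did not. Csnk1a1 rose on one by 0.78 log2 and Csnk1d by 0.52 log2 (limma adjusted p = 0.0105 and 0.0180). Tnks fell on one by 0.44 log2 (limma adjusted p = 0.0359). These were not followed through the alternatives. Ctnnb1, the gene of β-catenin, read 10.51, 10.63 and 10.63 log2 in KO livers, against 10.48, 10.80 and 10.60 log2 in WT livers, on its brightest probe set. That is a difference of -0.04 log2. Its other tested probe sets, named after their values were seen, differed by -0.81 and -0.60 log2 (limma adjusted p = 0.0183 and 0.0321), and both calls were lost without KO replicate 1 or 2 or WT replicate 2 (adjusted p 0.0586 to 0.108), that of the second also without WT replicate 3 and with arrays centred on the hepatocyte markers (adjusted p = 0.0623 and 0.0725).

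Of 11 tested TCF factors, coactivators and corepressors, 2 rose and 1 fell (median 0.44 log2), where 10.3% of all genes rose and 7.85% fell. In 6 of the 11 every KO array lay above every WT array, against 2546 of all 13370 genes. On their brightest probe sets the coactivators Ep300 and Crebbp rose by 0.61 and 0.49 log2 (limma adjusted p = 0.0186 and 0.0202). Read this way, both were lower in KO on the poly-A scale, at -0.13 and -0.26 log2. Each call was lost with any of 3 single arrays left out (adjusted p 0.0513 to 0.0696). These were KO replicate 1 or 3 or WT replicate 2 for Ep300, and KO replicate 2 or 3 or WT replicate 1 for Crebbp. A dimmer Crebbp probe set, named after its values were seen, rose by 0.84 log2 (limma adjusted p = 0.0034). That is more than the 0.75 log2 by which the poly-A scale lowers every difference. It was not followed through the alternatives. The remaining tested Crebbp probe sets were higher in KO by only 0.22 and 0.12 log2, and neither was called. A dimmer Tle3 probe set, also named after its values were seen and not followed, rose by 0.87 log2 (limma adjusted p = 0.0083). Its WT mean of 3.49 log2 lay below the 3.58 log2 floor of the test. The other tested Tle3 probe sets differed by 0.68, 0.48 and 0.11 log2, and none was called. Tle5, a short member of the corepressor family that TCF factors bind, fell by 0.61 log2 (SE 0.11, limma adjusted p = 0.00725). Of 6 tested secreted Wnt inhibitors, 1 rose, where 10.3% of all genes rose. Frzb, a decoy for Wnt ligands, was the one, by 0.77 log2 (SE 0.16, limma adjusted p = 0.0130), and by 0.02 log2 without passing on the poly-A scale. Its mean was 4.31 log2 in KO livers and 3.54 log2 in WT livers, so it reached the 3.58 log2 floor of the test only through the KO arrays, and the count of 1 is no support for a change of the list.

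**Figure D4:**
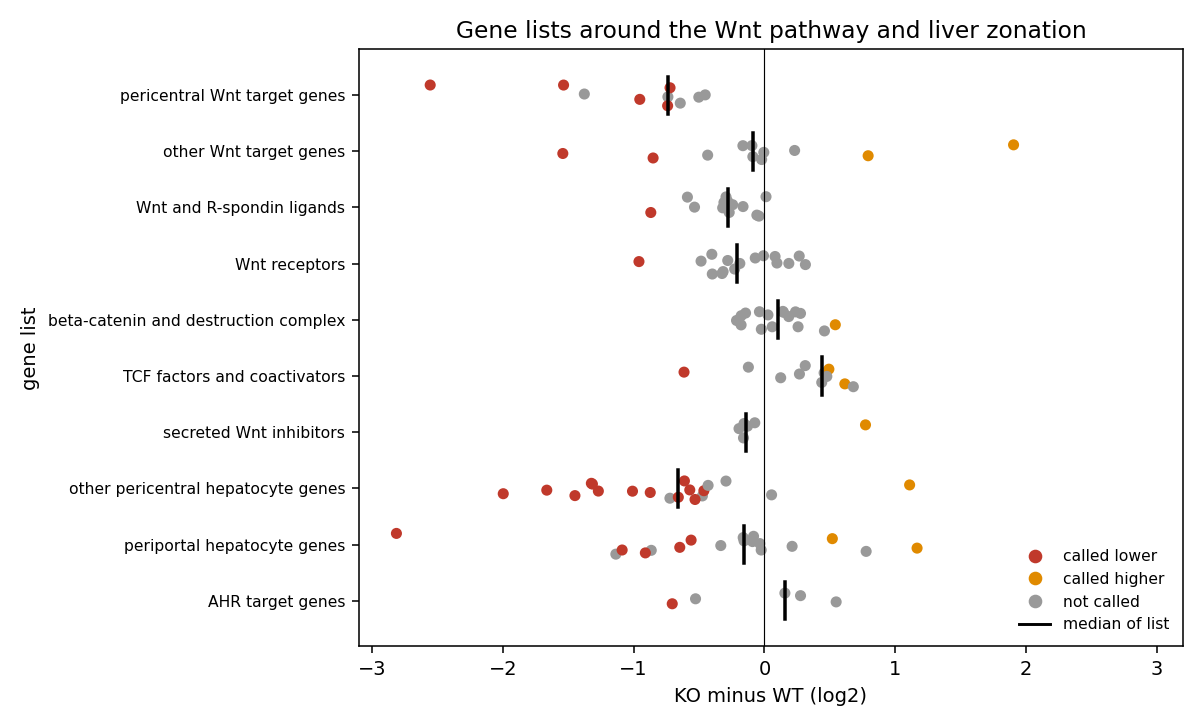
KO minus WT difference on the log2 scale (horizontal axis) of each tested gene, by list, with red for genes called lower, orange for genes called higher, grey for genes not called and a black line at the list's median. The medians are -0.74 log2 for the 10 pericentral Wnt target genes, -0.66 log2 for other pericentral genes, -0.16 log2 for periportal genes and 0.44 log2 for TCF factors and coactivators.

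The wider set of pericentral hepatocyte genes was lower as well. Of 19 tested, 13 fell, 1 rose and 5 did not pass (median -0.66 log2), against 7.85% of all genes that fell. Rgn, a calcium-binding protein of hepatocytes, fell by 1.32 log2 (SE 0.09, limma adjusted p = 9.6e-05), the nuclear receptor gene Nr1i3, which controls drug metabolism, by 1.27 log2 (SE 0.14), and Cyp7a1, the rate-limiting enzyme of bile acid synthesis, by 2.0 log2 (SE 0.26). Cyp2e1, the ethanol-oxidising P450 of the pericentral zone, read 12.90, 12.82 and 13.01 log2 in KO livers, against 13.33, 13.36 and 13.43 log2 in WT livers, a smaller step of -0.46 log2 (SE 0.08, limma adjusted p = 0.00746). Slc13a3, a dicarboxylate transporter, was the gene that rose, by 1.11 log2 (SE 0.12, limma adjusted p = 0.000880), or 0.36 log2 without passing on the poly-A scale.

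Periportal hepatocyte genes moved both ways. Of 18 tested, 5 fell, 2 rose and 11 did not pass (median -0.16 log2), where 7.85% of all genes fell and 10.3% rose. The count of 5 was 3 without KO replicate 1, KO replicate 2, WT replicate 1 or WT replicate 2. Cyp2f2, a periportal P450, fell by 2.81 log2 (SE 0.32, limma adjusted p = 0.00119), a larger step than the -2.56 log2 of Cyp1a2. Otc, of the urea cycle, fell by 0.65 log2 (SE 0.12) and the growth factor gene Igf1 by 0.91 log2 (SE 0.18), which lost its call without KO replicate 1 (adjusted p = 0.0511). Cdh1, the gene of E-cadherin, rose by 1.17 log2 (SE 0.21, limma adjusted p = 0.00871), and differed by 0.42 log2 without passing on the poly-A scale. The difference between pericentral and periportal lists was not tested.

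With the poly-A controls as the common level of all arrays, every difference is lower by 0.75 log2, and the median of all genes is -0.80 log2. On that scale all 10 pericentral Wnt target genes passed as lower, with a median of -1.49 log2, where 75.4% of all genes did. With arrays centred on the hepatocyte markers the median of the 10 genes was -0.68 log2 and the same count of 5 fell, against 5.15% of all genes.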

How the data were processed

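Livers of 3 KO and 3 WT mice gave total RNA, which per the labels' protocols was purified by TRIzol and labelled as Affymetrix prescribes. Genotypes come from the labels. Replicates are separate animals, numbered only to name them, and their number limits the precision.

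The authors deposited log2 expression values for each probe set, the base being read from their range. MAS5 is the tool named in the submitters' processing notes, without version or role. The sources used here do not say how background, scale and summary were made. Without detection calls, low values may be background, and folds of dim genes may be understated.

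The table held 45101 probe sets, of which 34958 had exactly 1 annotated symbol, 932 several and 9211 none listed. Tested were the 27022 probe sets that are not among the 64 array controls and have a mean at or above 3.58 log2, the 40th percentile. The KO and WT groups entered a limma 3.58.1 fit in R 4.3.3 (lmFit, eBayes with an intensity trend, two-sided, no covariates), with Benjamini-Hochberg adjustment over all 27022 probe sets. A gene was read by its brightest tested probe set, which gave 13370 genes. "Rose", "fell" and "passed" mean an adjusted p under 0.05. For single array values the test was an exact permutation. The fit was tested on simulated data.

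The 10 genes and the 16 lists set beside them, of 223 genes with 180 tested, were chosen with earlier results of these data known. Genes named are the 10, up to 4 of each list by adjusted p, the 5 nearest to Glul, and Sgpl1. The nearest were taken without genes named only as predicted loci, clones or accessions. Rspo3, Wnt9b, Fzd7, Ctnnb1, Csnk1d, Tnks, Tle3 and Cyp2e1 were named besides, after their values were seen. Promoter sequences are those of RefSeq on GRCm38.p6. Alternatives changed the filter, the scale, the variance model, the array weights, the probe set rule and the samples.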

Additional observations from a re-analysis of the deposited data

How the results depend on the processing

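Over 16 alternatives, the differences of the 10 genes kept their sign in all 160 values and their side of the threshold in 137, with 9 lost and 14 gained calls. The other 5 tested probe sets of these genes kept their sign in all 69 values. Leaving out 1 array each gave 3 to 7 genes called lower instead of 5, 4 to 9 probe sets instead of 7, 11 to 14 other pericentral genes instead of 13, 3 to 4 periportal genes instead of 5, and 45 to 69 of all list genes instead of 65. Centring on the poly-A controls gave 10 genes and 15 probe sets called lower, 15 periportal genes lower and 139 list genes called. The remaining alternatives kept these counts within 1.5 times. Since the poly-A scale lowers every difference by 0.75 log2, any positive difference under it changes sign, also in genes not named here. Among the genes recomputed one by one, it took Tnks2 to -0.21, Gsk3a to -0.29, Csnk1a1 to -0.49, Csnk1e to -0.51, Ep300 to -0.13, Crebbp to -0.26, Bcl9l to -0.29, Tiparp to -0.20, Cyp1b1 to -0.59, Slc38a2 to -0.089 and Rspo3 to -0.74 log2. Rspo3, near 0, was also -0.042 with array weights, -0.14, -0.054 and -0.11 without KO replicate 1, KO replicate 3 and WT replicate 1, and at most 0.23 without KO replicate 2. The brightest Ctnnb1 probe set was 0.012 with quantile normalization, 0.021 with hepatocyte centring, and 0.0027 and 0.046 without KO replicate 1 and WT replicate 2. The cause was not tested. No paired analysis was possible because the labels give no numbers shared between groups. Dim probe sets, such as those of Rspo3 and Wnt9b, limit what small differences can show.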

Other observations

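Genes of glutamate, ornithine and ammonium handling outside the 10 moved both ways. Of 14 tested, 4 fell, 3 rose and 7 did not pass, with a median of -0.07 log2, where 7.85% of all genes fell and 10.3% rose. Glud1, the mitochondrial glutamate dehydrogenase, read 11.26, 11.45 and 11.48 log2 in KO livers, against 12.18, 12.32 and 12.15 log2 in WT livers, and fell by 0.82 log2 (SE 0.10, limma adjusted p = 0.00155). Gpt, alanine aminotransferase, fell by 1.18 log2 (SE 0.19, limma adjusted p = 0.00470). Slc1a4, a transporter of neutral amino acids from the family of Slc1a2, rose by 1.62 log2 (SE 0.26, limma adjusted p = 0.00491). It read 8.13, 6.99 and 7.66 log2 in KO livers, against 5.82, 6.03 and 6.08 log2 in WT livers, while all 4 tested probe sets of Slc1a2 had a lower mean in KO. Slc38a2, a glutamine transporter found in many cell types, rose by 0.66 log2 (SE 0.10, limma adjusted p = 0.00398), did not pass with the mean of its probe sets (0.39 log2, adjusted p = 0.0660) and was at -0.09 log2 with arrays centred on the poly-A controls.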
